A study of Brassica napus with 6 samples.

Results

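Siliques were compared with seedlings of the Brassica napus (oilseed rape) hybrid HZ62 over all 80932 genes of the deposited normalized table, of 95143 genes listed in its count and normalized tables together. The normalized table spans the 19 chromosomes A1 to A10 and C1 to C9. The comparison used 4 of the 6 libraries of the tissue series: 2 of siliques 3 to 5 cm long and 2 of seedlings of 2 weeks, both labelled wild type and raised in a cycle of 16 h light and 8 h dark, with 22 °C by day and 18 °C by night. The 2 flower bud libraries (buds under 2 mm) entered the estimate of the spread and the choice of genes tested. They also entered the scaling factors recomputed below and the levels taken over all 6 libraries. All groups carry the label of the same hybrid, and the labels do not give the genotype of the seeds inside the siliques. Polyadenylated RNA was sequenced from whole tissue, so fewer cells of a type and less RNA per cell cannot be told apart. Of the genes listed, 36011 were A genes, 44636 were C genes and 285 had no chromosome, as read from characters 5 to 7 of the identifier.

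Brassica napus is an allotetraploid. Its A chromosomes are akin to those of Brassica rapa and its C chromosomes to those of Brassica oleracea, so most ancestral genes are present as an A and a C copy (homoeologues). No source used here says how the authors' counting treated reads that match both copies alike, and its part in the A and C values was not tested. A seedling is made largely of young leaf, stem and root, with much of its messenger RNA serving photosynthesis. A silique is the pod that encloses the seeds. Its green wall also photosynthesises, while the seeds inside build an embryo and lay down oil and storage protein. The files pair no identifier with a gene name, so the tissue labels could not be checked against marker genes, and the genes are described by level, subgenome, chromosome and position.

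The silique libraries held 12506762 and 10359099 reads on the listed genes, and the seedling libraries held 24110359 and 3973408. The value used throughout is the read count scaled by the authors with TMM factors (the trimmed mean of M values method) to a similar total per library. A value of 1 thus stood for about 4 reads in the shallow seedling replicate 2, where 1 read was worth 0.273, and for more in the other libraries. Across the genes tested, the Pearson correlation of log2(value + 1) was 0.986 between the silique libraries and 0.951 between the seedling libraries, against 0.724 to 0.788 between silique and seedling libraries. The 100 most abundant genes took 6.81% and 6.79% of the reads in silique, and 10.01% and 17.7% in seedling, where the replicates stood apart.

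A gene was tested if it reached a value of at least 1 in at least 2 of the 6 libraries. This held for 51488 genes, of which 24272 were A genes (67.4% of those listed), 27137 were C genes (60.8%) and 79 were unplaced. The other 29444 genes were too low to test, and 12593 genes had no read in any silique or seedling library. Flower bud counted in this filter, and with only the silique and seedling libraries 47824 genes passed it. A gene was called when its Benjamini-Hochberg adjusted p was under 0.05 in limma and its fitted change was at least 2-fold on the log2(value + 1) scale, which understates the change of low genes. The labels do not say whether the replicates were grown or harvested apart, so p-values reflect only the spread between these libraries, which may be technical.

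One gene in each subgenome shows how far the tissues lie apart in each direction. ZS11A09G001630 (chromosome A9, 1036548 to 1044050, minus strand) had values of 1008 and 1002 in the silique libraries, against 0.377 and 0.546 in the seedling libraries. It was 2179-fold higher in silique by the ratio of means, with a fitted log2 fold change of 9.43 (SE 0.157, limma adjusted p = 3.91e-06). In flower bud it stood at 0.161 and 0.159, 2 reads in each library, so among the 3 tissues it was abundant in silique alone. ZS11C07G049780 on chromosome C7 had values of 753 and 724 in silique, against 0.151 and 0 in seedling, where it had 4 reads in all. Its fitted log2 fold change was 9.43 (SE 0.177, limma adjusted p = 5.19e-06), and it had no read in flower bud.

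In the other direction, ZS11A01G036600 (chromosome A1, 27923109 to 27924505, plus strand) had no read in either silique library, against values of 221 and 312 in the seedling libraries. Set against 3 reads over both silique libraries, it was at least 1996-fold lower in silique (limma adjusted p = 1.34e-05), and it had no read in flower bud. ZS11C05G011220 on chromosome C5 had values of 0.487 and 0.985 in silique, against 350 and 335 in seedling. Its fitted log2 fold change was -7.64 (SE 0.209, limma adjusted p = 1.27e-05), and it too had no read in flower bud. The libraries of silique and seedling did not overlap for any of these genes, which is part of the rule that chose them. The models on A9 and A1 overlap no other gene model. Positions are those of the deposited count table, whose genome build is not given in the sources used here. For the genes on C5 and C7 only the chromosome is given.

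Many genes differed between siliques and seedlings. With the scaling as deposited, 11152 genes were called higher and 6107 lower in silique by limma, which are 21.7% and 11.9% of the genes tested and 33.5% together. The balance of directions followed the scaling between libraries and not the test. With TMM factors recomputed from the reads, limma called 7784 genes higher and 8033 lower, or 15.2% and 15.7% of 51326 genes tested and 30.8% together. With the same recomputed factors, edgeR's quasi-likelihood test on the reads called 8417 higher and 9382 lower, or 15.9% and 17.7% of 52918 genes and 33.6% together. When edgeR was given the authors' scaling, 63.7% of its called genes were higher in silique, close to the 64.6% of limma with that scaling.

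The deposited scaling set silique higher against seedling by 0.30 on the log2 scale than the recomputed factors did. Over all tested genes the log2 fold change had a median of 0.30 with the deposited scaling and 0.07 with the recomputed factors. Directions below are therefore read against these medians, and both scalings are given where they part. Among the genes tested under both scalings, all 7784 genes called higher with recomputed factors were also called higher with the deposited scaling, and all 6105 genes called lower with the deposited scaling were also called lower with recomputed factors. No gene was called in opposite directions. Both fits used the same reads and model and differed mainly by the shift of 0.30, so this nesting was largely set in advance. In limma under both scalings and in edgeR alike, 7295 genes were called higher and 6097 lower, of 51070 genes tested in all 3 fits.

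On the log2(value + 1) scale the called changes were mostly between 2-fold and 8-fold. Among the genes called higher in silique, 970 (8.70%) rose at least 8-fold and 160 at least 32-fold. Among those called lower, 655 (10.7%) fell at least 8-fold and 76 at least 32-fold. The fitted sizes depended on the model. In edgeR on the reads, 30.1% of the genes called higher and 29.4% of those called lower changed at least 8-fold, and 18.7% and 10.8% at least 32-fold. The genes called higher held 36.0% and 35.8% of the summed value in the silique libraries, against 13.2% and 8.02% in the seedling libraries. The genes called lower held 8.57% and 8.56% in silique, against 30.01% and 39.6% in seedling. The median gene called higher had a mean value of 14.0 in silique and 3.41 in seedling, with 11.7 in flower bud. The median gene called lower had 2.25 in silique and 13.0 in seedling, with 2.88 in flower bud.

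Complete absence of reads was more often met in seedling, although its 2 libraries held more reads in sum than those of silique. With a value of at least 5 in both silique libraries, 408 genes had no read in seedling, whereas 96 genes with a value of at least 5 in both seedling libraries had no read in silique. Of the 408 genes, 233 were A genes and 174 were C genes. Of the 96 genes, 39 were A genes and 57 were C genes. As background, 36011 A genes and 44636 C genes were listed, and the split of the 96 genes lies near that. At a value of at least 50, 29 genes were read in silique alone, 20 of them A genes and 9 C genes, against 6 genes read in seedling alone, 3 in each subgenome. These counts do not use a fold change, but flower bud was not part of them. The cuts at 5 and 50 use the deposited scaling, which set silique higher against seedling than recomputed factors did. No other scaling was tried for them.

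Genes were then grouped by their mean value over the 4 silique and seedling libraries. In this grouping the share of genes called stood apart at the lowest and the highest level. It was 15.2% of 5065 tested genes under a value of 1, 34.2% of 15820 at 1 to 5, 33.8% of 18564 at 5 to 20, 37.8% of 10647 at 20 to 100 and 56.2% of 1392 at 100 or more. With edgeR on the reads it was 27.1% of 6433 genes under 1, 36.3%, 31.7% and 33.5% in the middle groups and 59.2% at 100 or more. Grouped by the mean over all 6 libraries, it was 30.4% of 3493 genes under 1 and 54.1% of 1410 genes at 100 or more. With recomputed factors that grouping gave 36.3% of 3332 genes and 52.2% of 1410 genes. The low share under 1 thus depended on the definition of level. Shares under 1 are also partly set by the filter and by the added 1. Under 1 over the 4 libraries, a gene could pass the filter through flower bud alone. Under 1 over all 6 libraries, it still needed a value of at least 1 in 2 of them, which a gene read in 1 tissue could reach. The share at 1 to 5 was 21.6% without silique replicate 1, 21.4% without silique replicate 2, 39.97% without seedling replicate 1 and 27.4% without seedling replicate 2. The 5 shares by level given first are read against the 33.5% of all tested genes. Fits without 1 library called other shares of their own tested genes, so the 33.5% is no background for them. The share at 100 or more ranged from 45.1% to 65.8% when 1 silique or seedling library was left out.

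The direction of change also depended on level. From a value of 1 up to 100, more genes were called higher than lower in silique with the deposited scaling: 3334 against 2079 at 1 to 5, 4261 against 2008 at 5 to 20, and 2719 against 1305 at 20 to 100. Among the most abundant genes, at 100 or more, 358 were called higher and 424 lower. This group had a median log2 fold change of -0.21, below the 0.30 of all tested genes. With recomputed factors the 3 middle groups were nearly even, at 48.7%, 51.1% and 50.7% of called genes higher, while 271 of the most abundant genes were called higher and 532 lower, or 33.7% higher.

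The balance among the most abundant genes moved with single libraries and with the definition of level. Of the called genes at 100 or more, 45.8% were higher in silique. The share was 50.3% without silique replicate 1, 49.8% without silique replicate 2, 42.0% without seedling replicate 1 and 50.1% without seedling replicate 2. Grouped by the mean over all 6 libraries it was 55.4%, or 41.8% with recomputed factors. In each of these settings it stayed below the share over all called genes. The seedling replicates also differed most in this group, with a median absolute difference of 0.52 on the log2 scale, against 0.06 between the silique replicates. At 20 to 100 these differences were 0.30 in seedling and 0.10 in silique, and at 1 to 5 they were 0.41 and 0.26.

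**Figure D1:**
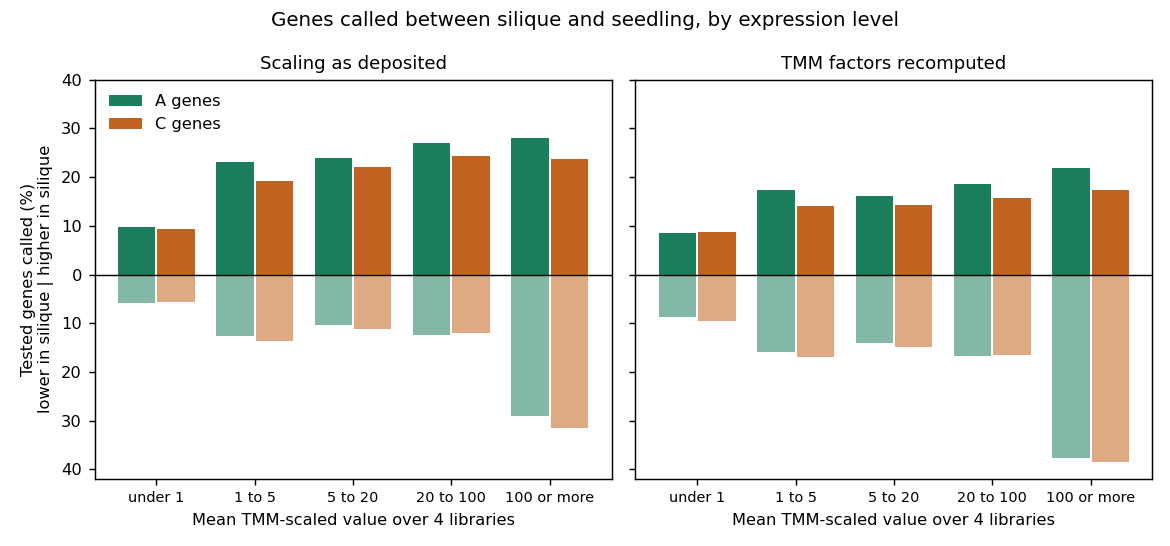
Share of tested genes called between silique and seedling (y axis, percent; upward bars are genes higher in silique, downward pale bars are genes lower) in groups by mean TMM-scaled value over the 4 libraries (x axis), for A genes and C genes, with the scaling as deposited and with TMM factors recomputed. At 100 or more, 28.1% of A genes and 23.6% of C genes were higher and 29.2% and 31.6% were lower with the deposited scaling.

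A genes were higher in silique more often than C genes. Of the tested A genes, 23.1% were called higher and 11.5% lower, and of the tested C genes 20.4% were called higher and 12.2% lower, set against 21.7% and 11.9% of all genes. In numbers these were 5597 higher and 2801 lower A genes, and 5538 higher and 3300 lower C genes. Among called genes, 66.6% of A genes (Wilson 95% interval 65.6 to 67.6, counting error only) and 62.7% of C genes (61.6 to 63.7) were higher in silique, a difference of 3.99 percentage points. Genes are not replicates, so this difference carries no test. The median log2 fold change was 0.34 in A genes and 0.27 in C genes.

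The difference between the subgenomes kept its sign where the overall balance did not. With recomputed factors 51.7% of called A genes and 46.8% of called C genes were higher in silique, 4.85 points apart, and with edgeR on the reads these shares were 49.95% and 44.7%, 5.23 points apart. In each of 20 fits that differed in scaling, test, pseudocount, filter, table or libraries, the share was higher in A genes than in C genes. These fits reuse the same reads, and a scaling factor moves the A and C genes of a library alike. Their agreement was therefore largely set in advance. The fit on the deposited counts held only C genes of C1, C2 and part of C3. The difference was 2.22 points without seedling replicate 1, the deeper seedling library, and 3.68 to 4.85 points without any other library. Without any model, each silique library was also set against each seedling library, and genes at least 2-fold apart were counted. The share of these that was higher in silique was larger in A than in C genes by 4.79 and 3.03 points for silique replicate 1 (against seedling replicates 1 and 2), and by 4.95 and 2.74 points for silique replicate 2. These 4 pairs share libraries and are not independent.

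**Figure D2:**
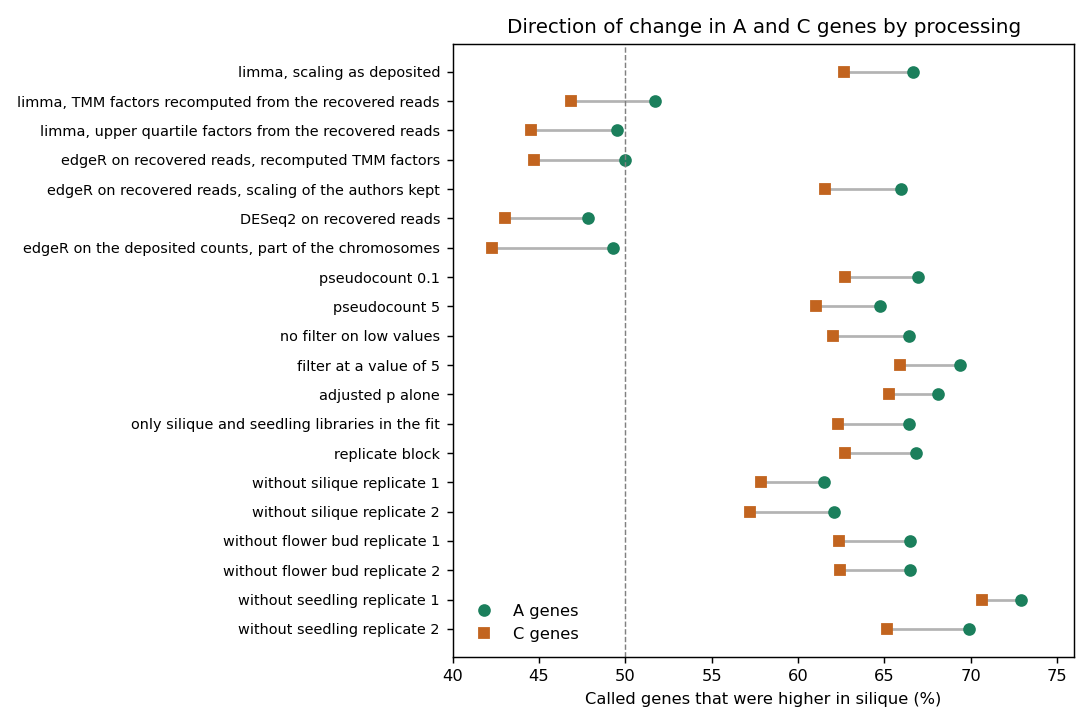
Share of called genes that were higher in silique (x axis, percent) in A genes (circles) and C genes (squares) under 20 fits (y axis); the dashed line marks 50%. Both shares move together with the scaling, from 66.6% and 62.7% as deposited to 51.7% and 46.8% with recomputed TMM factors, and the A share lies above the C share in every fit. The fit on the deposited counts holds only C genes of C1, C2 and part of C3. The fits reuse the same reads and are not independent.

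By level, the A genes exceeded the C genes in the share of called genes higher in silique by 0.534 points under a value of 1, 6.17 at 1 to 5, 3.71 at 5 to 20, 1.67 at 20 to 100 and 6.29 at 100 or more. With recomputed factors these differences were 2.04, 6.70, 4.18, 3.73 and 5.84 points. Large changes took up like shares of the called genes in both subgenomes. At least 8-fold changes made up 9.27% of the higher A genes and 8.11% of the higher C genes, and 10.8% of the lower A genes and 10.7% of the lower C genes.

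The A share of the summed value and the ranks of genes in a library can be read without scaling, as A and C genes share a library. The A genes held 48.04% and 48.01% of the summed value of A and C genes in the silique libraries, against 47.07% and 47.43% in the seedling libraries. The silique libraries lay above both seedling libraries, by 0.779 percentage points on average. An exact two-sided permutation test gave p = 0.333, the smallest value that 2 against 2 libraries can reach. The median log2(value + 1) of tested A genes exceeded that of tested C genes by 0.08 and 0.07 in the silique libraries, and by -0.03 and 0.00 in the seedling libraries. These medians do depend on the scaling, through the added 1. In seedling replicate 2 both medians fell on the same value of 5.46, where values move in steps of 0.273. Among the 1000 most abundant genes, 501 and 497 were A genes in the silique libraries, against 467 and 469 in the seedling libraries, whereas among the 100 most abundant the A genes numbered 51 and 48 in silique and 52 and 51 in seedling.

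The A share did not shift evenly over the chromosomes. Of the 10 A chromosomes, 6 held a larger part of the summed value in both silique libraries than in either seedling library, 3 held a smaller part and 1 overlapped. Of the 9 C chromosomes, 2 held a larger part, 5 a smaller part and 2 overlapped. When 1 chromosome at a time was left out, the difference in A share ranged from 0.344 points without A5 to 1.29 points without A4.

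By the count of called genes, the chromosomes of a subgenome resembled each other apart from a few. The share of called genes higher in silique ran from 62.0% on A4 to 71.5% on A7 among the A chromosomes, with a median of 65.6%. Among the C chromosomes it ran from 51.7% on C2 to 67.5% on C8, with a median of 63.9%. C2 and C6 (57.3%) were the lowest of all 19. With recomputed factors C2 and C6 were again the lowest, at 37.96% and 41.9%, and A7 again the highest, at 58.8%. A7 had a median log2 fold change of 0.41 and C2 of 0.13. A shared number does not make an A and a C chromosome homoeologous throughout, as parts of A7 are homoeologous to C6. Between chromosomes of the same number, A exceeded C by 16.3 points for A2 and C2, and by 7.58 points for A7 and C7, but lay below it by -1.42 points for A4 and C4 and by -2.44 points for A8 and C8. With recomputed factors these differences were 15.8, 11.5, -0.106 and -3.34 points, and that of A1 and C1 turned to -1.39 points, against 1.38 points as deposited.

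**Figure D3:**
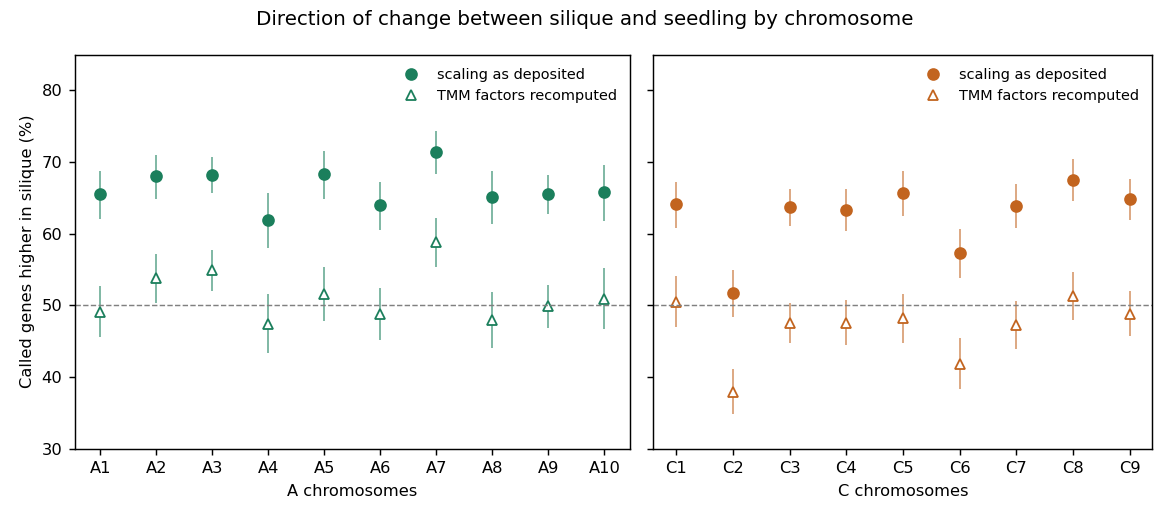
Share of called genes that were higher in silique (y axis, percent, with Wilson 95% intervals that cover counting error only) on each A and C chromosome (x axis), with the scaling as deposited (filled circles) and with TMM factors recomputed (open triangles); the dashed line marks 50%. C2 stands lowest with 51.7% and 37.96%, and A7 highest with 71.5% and 58.8%.

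On C2, genes lower in silique were most frequent at the end of the chromosome. A2 and C2 are homoeologous along much of their length, as are parts of A7 and C6. Each chromosome was divided into 5 parts with equal numbers of listed genes in the order of the identifiers, a division chosen after the data were examined. In the last part of C2 (54348040 to 65217261), 41 of 538 tested genes were called higher in silique and 178 lower, or 7.62% and 33.1%, against 21.7% and 11.9% of all tested genes. The median log2 fold change there was -0.50 with the deposited scaling and -0.72 with recomputed factors. In the last part of A2 (27497229 to 33414770), 183 of 467 tested genes were called higher and 53 lower, or 39.2% and 11.3%. The median there was 0.72 with the deposited scaling and 0.48 with recomputed factors. The other 44 parts of C chromosomes had medians from 0.04 to 0.48, and the other 49 parts of A chromosomes from 0.17 to 0.59.

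With the deposited scaling, the summed values of these ends separated the tissues in every library. The end of C2 summed to 4585 and 4603 in the silique libraries and 6958 and 6936 in the flower bud libraries, against 8787 and 10254 in the seedling libraries. The end of A2 summed to 12233 and 12322 in silique and 10816 and 10701 in flower bud, against 8984 and 9904 in seedling. Silique thus had the lowest values at the C2 end and the highest at the A2 end, and flower bud lay between. With recomputed factors the C2 end summed to 4417 and 4413 in silique and 6101 and 6105 in flower bud, against 10720.2 and 11793 in seedling, in the same order. The A2 end then summed to 11786 and 11811 in silique and 9484 and 9419 in flower bud, against 10961 and 11391 in seedling, so that flower bud was lowest and silique lay closer to seedling. The C2 end gave 27.26% and 27.20% of the sum of both ends in silique and 39.1% and 39.3% in flower bud, against 49.4% and 50.9% in seedling. This percentage does not depend on the scaling. The 2 ends together summed to 16818 and 16925 in silique, against 17771 and 20159 in seedling, or with recomputed factors to 16203 and 16223 in silique, against 21681 and 23184 in seedling.

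**Figure D4:**
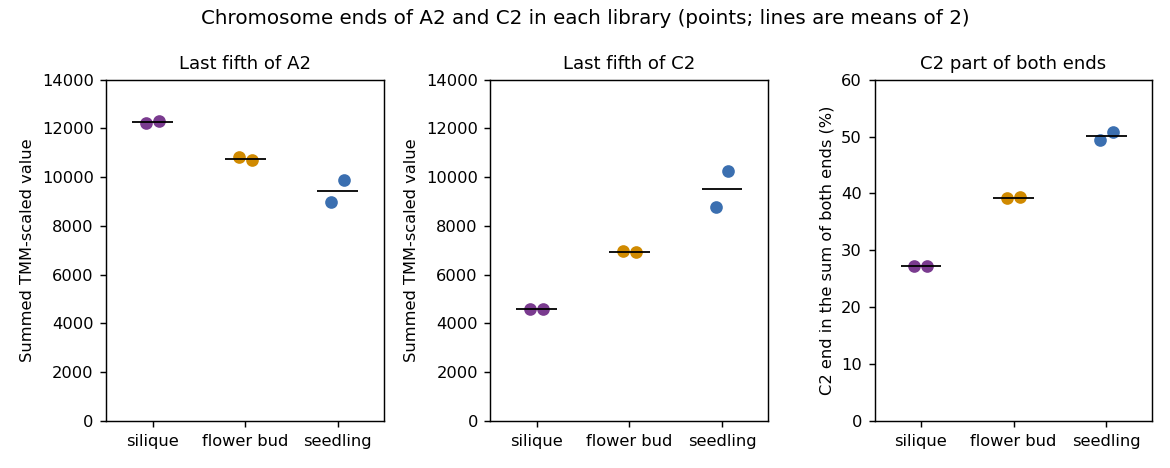
Summed TMM-scaled value of the last of 5 equal parts of A2 (left) and of C2 (middle), and the percentage of their sum that the C2 end gave (right), in each silique, flower bud and seedling library with the deposited scaling (points; lines are the means of 2 libraries). The C2 part is 27.2% in silique, 39.2% in flower bud and 50.2% in seedling on average.

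A weaker pattern of the same kind was seen on A7 and C6. In the last 2 of the 5 parts of A7, 322 of 1008 tested genes were called higher in silique and 104 lower. In the last 2 parts of C6, 172 of 1023 tested genes were called higher and 177 lower. These are 31.9% higher and 10.3% lower on A7, and 16.8% higher and 17.3% lower on C6, against 21.7% and 11.9% of all tested genes. The C6 stretch gave 40.5% and 40.8% of the summed value of both stretches in the silique libraries and 50.5% and 50.6% in flower bud, against 51.8% and 51.3% in seedling. Here flower bud stood near seedling, whereas by the same percentage at the ends of A2 and C2 it stood between the other tissues. These stretches were chosen after their values were seen and carry no test. What moved them together was not tested.

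The same fitted changes were then cut into windows of 50 neighbouring tested genes, which is a finer view and not separate support. Of 1019 windows, 480 on A and 539 on C chromosomes, the median log2 fold change lay between -0.02 and 0.63 in the middle 90%. All 6 windows under -0.50 lay on C2, and 4 of the 6 windows above 0.80 lay on A2. Windows with a median under 0 numbered 17 on A chromosomes (3.54%) and 43 on C chromosomes (7.98%), or 127 (26.5%) and 205 (38.2%) with recomputed factors. With those factors 7 of 9 windows under -0.50 lay on C2.

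**Figure D5:**
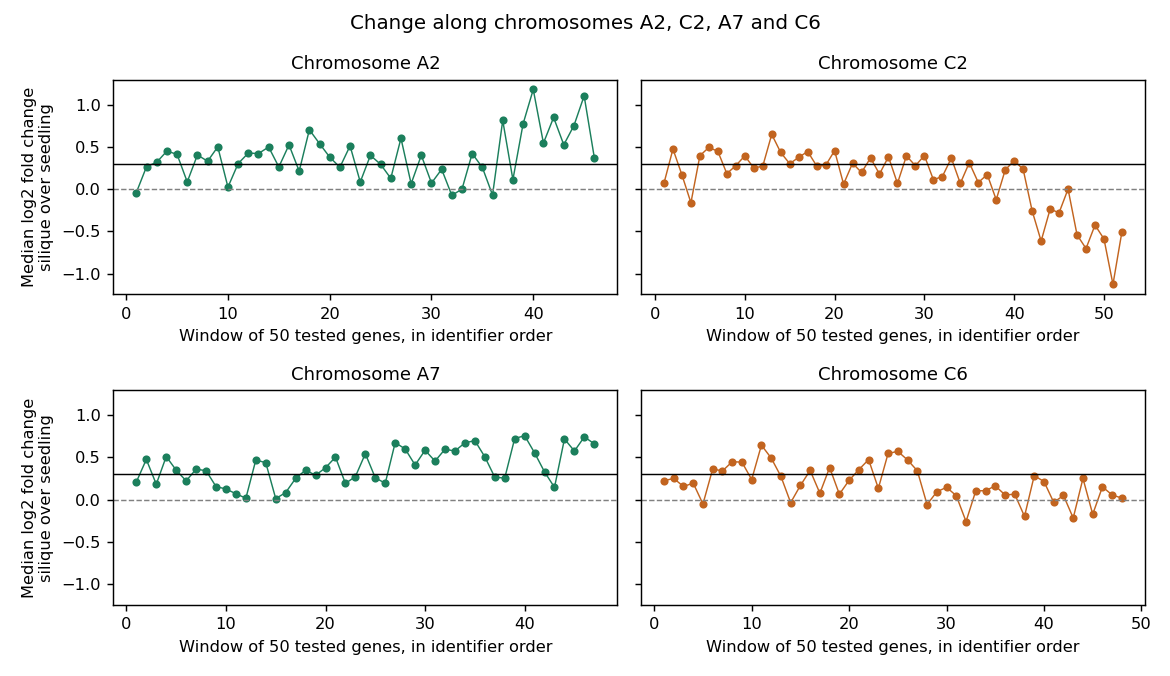
Median log2 fold change of silique over seedling (y axis) in successive windows of 50 tested genes (x axis, in identifier order) along chromosomes A2, C2, A7 and C6 with the deposited scaling; the solid line is the median over every tested gene (0.30) and the dashed line marks 0. Windows near the end of C2 fall to -1.13 and windows near the end of A2 reach 1.18.

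The difference between the subgenomes was smaller when these chromosomes were left out. They were chosen after their values were seen. A2 and A7 lay above the share of all called A genes, and C2 and C6 lay below that of C genes. A smaller difference without them was therefore set in advance. Without A2 and C2 the share of called genes higher in silique was larger in A than in C genes by 2.58 points, against 3.99 points with all chromosomes. Without A2, C2, A7 and C6 it was larger by 1.18 points, or by 1.85 points with recomputed factors and 2.505 points with edgeR on the reads. With 1 chromosome left out at a time, the difference was 2.75 points without C2, 3.42 without A7, 3.45 without C6 and 3.82 without A2, and 3.70 to 4.58 points without any one of the others.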

How the data were processed

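The authors deposited 2 tables for the 6 libraries. The first holds whole-number read counts for 65535 genes with their positions. It covers all A chromosomes, but of the C chromosomes only C1, C2 and part of C3. The second holds a normalized signal for 80932 genes, which the authors' name for the table gives as TMM. The submitters' processing notes name HISAT2, SAMtools, GATK, featureCounts and edgeR without role or version. The genome build is not given in the sources used here.

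Each deposited signal value was a whole multiple of 1 step per library. Dividing by the step gave whole reads for 100% of values, within 0.05 reads, and these equalled the deposited counts for 100% of the values in the 51324 genes of both tables. Limma (3.58.1, R 4.3.3) was fitted to log2(value + 1) with a mean-variance trend, over all 6 libraries (3 residual degrees of freedom), for genes with a value of at least 1 in at least 2 libraries. P-values were adjusted with Benjamini-Hochberg over all tested genes, and a gene was called at an adjusted p under 0.05 and a log2 fold change of at least 1. On the recovered reads, edgeR (4.0.16) gave 17799 called genes. DESeq2 (1.42.0), other factors, pseudocounts, filters and libraries were tried as alternatives. Limma with the deposited scaling and edgeR with recomputed factors were run on simulated reads, with the same spread in every tissue. The other fits were not.

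The named genes were, in each subgenome, the called gene with the largest fitted rise and the one with the largest fitted fall, among genes with a mean value of at least 50 in whichever tissue was higher, with the silique libraries clear of the seedling libraries. Group members, levels and lists were chosen with earlier results of these data known. Of the identifiers, 0 matched the RefSeq gene table, so no gene names, marker lists or sequences are given. The libraries held 3973408 (seedling replicate 2) to 24110359 reads (seedling replicate 1). The chi-square per gene between replicates was 2.38 in silique, 2.48 in flower bud and 16.4 in seedling. Intervals and floors hold for counting error alone, as no molecular identifiers separate molecules from their PCR copies.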

Additional observations from a re-analysis of the deposited data

How the results depend on the processing

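The number of genes called higher in silique was 11152. It was 7031 with DESeq2 (59055 genes tested) and 5572 with edgeR on the deposited counts (34296 genes tested). Of the 51488 genes tested by limma, it was 5446 with a pseudocount of 5 and 17786 with the adjusted p alone. The number called lower was 6107. It was 9382 with edgeR on the recovered reads (52918 genes tested) and 3220 with a pseudocount of 5 (51488 genes tested). Leaving out 1 library at a time gave 7657 to 14227 higher and 4491 to 5977 lower.

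The median log2 fold change of 0.30 was 0.0699 with recomputed TMM factors, 0.0244 with upper quartile factors, 0.0243 with edgeR on the recovered reads, 0.0249 on the deposited counts and 0 with DESeq2. It was 0.39 with a pseudocount of 0.1, 0.16 with a pseudocount of 5, 0.11 without a filter and 0.39 with a filter at 5, and 0.27 to 0.39 with 1 library left out.

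The excess of A over C genes in the share of called genes higher in silique, 3.99 points, was 7.01 with edgeR on the deposited counts, 1.18 without A2, C2, A7 and C6, and 2.22 to 4.85 with 1 library left out. The deposited counts hold only C genes of C1, C2 and part of C3, so the 7.01 points do not compare the whole subgenomes. The silique excess in A share of 0.779 points was 1.11 without the 100 most abundant genes, and 0.598 to 0.959 with 1 library left out. At a value of 100 or more, the share of called genes higher in silique, 45.8%, passed 50% when level was taken over all 6 libraries (55.4%), and ranged from 42.0% to 50.3% with 1 library left out, passing 50% without silique replicate 1 (50.3%) and without seedling replicate 2 (50.1%). The share of genes called ranged from 45.1% to 65.8% there and from 21.4% to 39.97% at 1 to 5. The cause was not tested for any of these. The named genes kept direction and call in edgeR, without each flower bud library and without each library of the tissue where they were low. Without a library of the tissue where they were high they no longer passed the filter and were not tested.

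With the replicate number as a block, 11234 genes were called higher and 6127 lower, and the excess of A over C was 4.11 points. Deviations of same-numbered libraries correlated at 0.00253 between silique and seedling, -0.0224 between silique and flower bud and -0.00599 between flower bud and seedling. No pairing by number was thus seen. With 2 libraries per tissue, this cannot show whether growth or harvest was shared. The alternatives on chromosomes, library pairs, recomputed factors by chromosome and level, and left-out libraries by level were chosen after the data were examined.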

Other observations

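Called genes lay next to genes called in the same direction somewhat more often than the share of called genes alone. Among 26679 positioned tested genes whose models do not overlap their neighbour, 26.3% of genes higher in silique were followed by a gene higher in silique, against 22.1% of all. Of the genes lower in silique, 17.6% were followed by another lower one, against 12.8% of all. In C genes with positions this was 21.5% against 13.9%, and without C2 it was 16.9% against 12.5%.

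Short genes were called more often. In the positioned genes, 40.7% of 2468 tested genes spanning under 1000 bases were called, against 36.7% at 1000 to 2000, 32.8% at 2000 to 4000, 30.7% at 4000 to 8000 and 33.7% at 8000 or more, with 33.5% of all tested genes called. The median level of the shortest genes was 2.33, against 7.66 at 2000 to 4000 bases. Of the called genes under 1000 bases, 67.6% were higher in silique with the deposited scaling, against 62.4% at 8000 or more and 64.6% of all called genes. With recomputed factors these shares were 57.5%, 46.05% and 49.2%.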
